A study of Mus musculus with 6 samples.

Results

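CM2 is one of 4 cardiomyocyte clusters that the authors named in single-cell profiles of adult mouse hearts. Its members are the 747 cells that the deposited cell table assigns to the cluster name CM2, out of 21706 cells in all. Cardiomyocytes are the contracting cells of the heart. They are packed with sarcomeres, live mainly on mitochondrial fat oxidation and cycle calcium through the sarcoplasmic reticulum at each beat. YAP is the transcriptional coactivator at the end of the Hippo pathway. The kinases Lats1 and Lats2 phosphorylate YAP and keep it out of the nucleus, and unphosphorylated YAP binds TEAD factors on DNA and switches on genes of the cytoskeleton, adhesion and growth.

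The profiles were made with Drop-seq, in which single cells are caught in droplets with barcoded beads and transcripts are counted by unique molecular identifiers (UMIs) at their 3′ ends. Control hearts came from Myh6-MCM mice given tamoxifen; MCM is MerCreMer, a Cre recombinase that tamoxifen activates, driven here by the cardiomyocyte promoter of Myh6. YAP5SA hearts came from Myh6-MCM mice that also carried the Yap5SA transgene, a form of YAP that Lats kinases cannot phosphorylate, and were given tamoxifen too. Both genotypes therefore carried the Cre and had the drug, and the Cre that acts on the transgene was driven in cardiomyocytes. There were 3 libraries per genotype: dissociated tissue of the heart gave 2 of them, and a preparation enriched for cardiomyocytes gave 1. They are called here Control enriched, Control tissue-2 and Control tissue-3, and YAP5SA enriched, YAP5SA tissue-1 and YAP5SA tissue-2. Where 3 values are given per genotype, those of Control come in the order enriched, tissue-2, tissue-3, and those of YAP5SA in the order tissue-1, tissue-2, enriched; runs of 6 values give Control first. Nothing in the labels says whether the libraries came from separate animals, so p-values measure the spread between these libraries, which may be technical.

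CM2 held 143 cells of Control enriched, 70 of Control tissue-2 and 237 of Control tissue-3. It held 40 cells of YAP5SA tissue-1, 26 of YAP5SA tissue-2 and 231 of YAP5SA enriched. These cells made up 9.22% to 23.0% of the cardiomyocytes of a library. Cluster sizes were not compared between genotypes, because the genes that define the clusters differ between them. Of the 747 cells, 2 carried a barcode that also occurs in another library.

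CM2 cells held fewer UMIs than CM1 and CM3 cells. The median UMI count per CM2 cell was 1202, 1469 and 2155 in Control, and 1020.5, 989.5 and 1169 in YAP5SA. In the same order CM1 cells had medians of 3516, 7752, 8638.5, 4525.5, 5416 and 6581. CM3 cells had medians of 1597.5, 2389, 2511, 1633, 2461.5 and 2180. In each of the 6 libraries the CM2 median was below those of CM1 and CM3. Summed over its cells, CM2 gave 35122 UMIs in YAP5SA tissue-2 and 605297 in Control tissue-3, the lowest and highest totals. All levels below are CPM, a gene's UMIs per 1000000 UMIs of the same cluster and library, so the smaller libraries limit the precision.

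**Figure D1:**
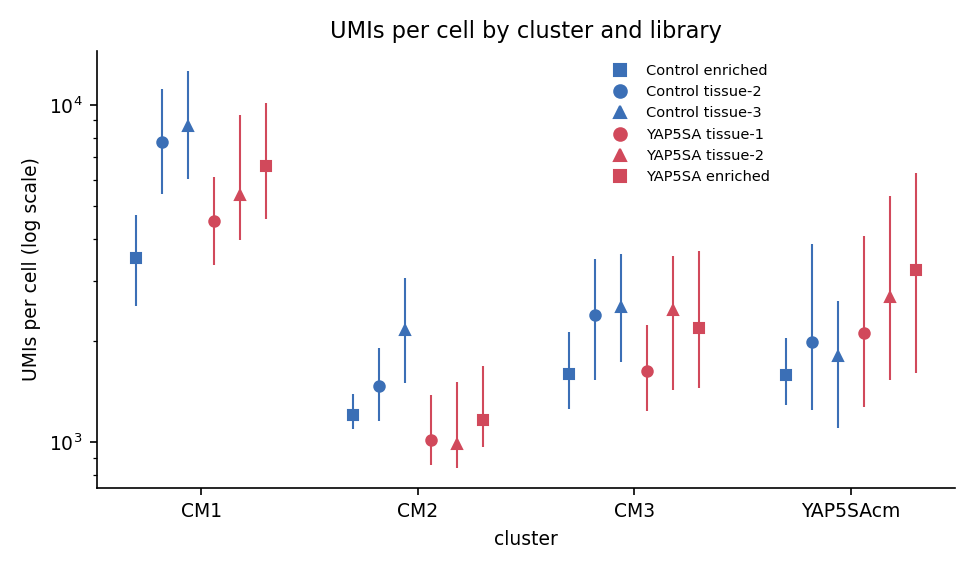
UMIs per cell (log scale) in the 4 cardiomyocyte clusters; points are medians of the 6 libraries and bars run from the 25th to the 75th percentile of cells. The CM2 medians lie between 989.5 and 2155 and are the lowest of CM1, CM2 and CM3 in each library.

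The label was checked against its markers, and CM2 cells carried cardiomyocyte transcripts in every library. Tnnt2, cardiac troponin T of the thin filament, stood at 22579, 19892 and 15645 CPM in Control and at 19596, 15204 and 17799 CPM in YAP5SA. Tnni3, cardiac troponin I, ran from 4249.9 to 12624 CPM in Control and from 1367 to 3330.5 CPM in YAP5SA. Myh6, the main myosin heavy chain of the adult mouse heart, ran from 1111 to 8688 CPM in Control and from 512 to 4018 CPM in YAP5SA. All 12 cardiomyocyte markers were found. Together they took 109200, 103500 and 92980 CPM of CM2 in Control and 64270, 49060 and 64300 CPM in YAP5SA. Each YAP5SA value lay below all Control values. In the YAP5SA libraries the sums were 96420, 86770 and 88870 CPM in CM1 and 78040, 85800 and 84480 CPM in CM3.

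Markers of other cell types were low in CM2 but not absent. The 12 fibroblast markers summed to 756 CPM in Control enriched, 314 in tissue-2 and 1241 in tissue-3, and to 451, 1594 and 644 CPM in YAP5SA. The 14 macrophage markers summed to 21.9 to 702 CPM in Control and to 449 to 1203 CPM in YAP5SA, where all 3 values lay above 2 of the 3 Control values. The 6 neutrophil markers found were at 0 in all 6 libraries. The 8 smooth muscle markers summed to 119 to 305 CPM in Control and to 1765 to 3696 CPM in YAP5SA, where Acta2 held most of the sum. Myh11, the smooth muscle myosin, was at 0 in 4 libraries and at most 21.5 CPM. The part of other cells' RNA in the results below was not tested. Leaving out cells with such UMIs, as done below, does not measure it.

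Control tissue-2 stood apart from the other Control libraries. Nppa, the gene of atrial natriuretic peptide, was at 27332 CPM in its CM2 cells against 488 and 438 CPM in Control enriched and tissue-3. Ankrd1, a stress-responsive ankyrin repeat protein and a known YAP target, was at 16194 CPM there against 2099 and 1693 CPM. The median share of UMIs from mitochondrial genes per CM2 cell was 15.4%, 7.18% and 25.3% in the Control libraries and 3.92% to 10.3% in the YAP5SA libraries. In an earlier set of cluster labels in the same table, 292 of the 297 YAP5SA cells of CM2 were in clusters named Y5SA and none of the 450 Control cells were. The same held for CM1, where 233 of 243 YAP5SA cells and none of 1429 Control cells had a Y5SA label. Within Control the earlier labels followed single libraries. Of the CM2 cells, 225 of Control tissue-3 had the earlier label CM1, 140 of Control enriched CM2 and 70 of Control tissue-2 CM3. The earlier labels Y5SA-2 and Y5SA-1 were each spread over the YAP5SA libraries, with 29, 20 and 164 and with 10, 6 and 63 CM2 cells. Because the Control labels went with the library, a split of labels alone does not set genotype apart from library.

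The first comparison describes what CM2 cells held relative to CM1 and CM3 cells of the same library. The clusters were made from these genes, so no test was run. A gene counts as higher or lower where the log2 ratio of CPM + 10 had a median of at least 1 in size over the libraries and the same sign in all 6. Against CM1, 18 of 5462 genes were higher (0.33%) and 17 were lower (0.311%). Against CM3, 109 of 5826 genes were higher (1.87%) and 264 were lower (4.53%). Fewer genes thus passed this threshold against CM1 than against CM3. The counts against CM1 rest on single libraries and on depth. Without Control enriched, tissue-2 or tissue-3, 50, 52 and 58 genes were higher and 55, 41 and 44 lower. Without YAP5SA tissue-1, tissue-2 or enriched, 14, 17 and 18 were higher and 10, 6 and 30 lower. With cells thinned to 1000 UMIs 24 were higher and 35 lower, and these held 8 of the 18 and 5 of the 17.

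The genes with the largest excess in CM2 over CM1 included S100 proteins and actin regulators. S100a10, the S100 protein that pairs with annexin A2 (Anxa2), had a median log2 ratio of 2.00. Its CM2 level was 27.4, 424 and 47.9 CPM in Control, against 10.4, 253 and 17.3 CPM in CM1. In YAP5SA it was 1569, 2733 and 1356 CPM, against 54.5, 227 and 169.6 CPM in CM1. The excess was thus present in each library and far larger in the YAP5SA libraries. Vim (vimentin, an intermediate filament), S100a11, S100a6, Anxa2 and the actin monomer binder Tmsb4x had median log2 ratios of 1.99, 1.85, 1.61, 1.48 and 1.34. Marcks, which links actin to the membrane, reached 1.88, the dynein light chain gene Dynll1 1.69 and Cdkn1a, which encodes the cell cycle inhibitor p21, 1.44. Of 33 measured actin cytoskeleton genes, 7 were higher than in CM1 and none was lower, with a median log2 ratio of 0.58 beside 0.00 over all measured genes.

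Several genes of calcium handling and metabolism passed as lower in CM2 than in CM1 through the YAP5SA libraries. Atp2a2, the calcium pump SERCA2 of the sarcoplasmic reticulum, had a median log2 ratio of -1.22, and its inhibitor Pln (phospholamban) -1.0. Rrad, a small GTPase that restrains the L-type calcium channel, and Unc45b, a myosin chaperone, had -1.02 and -1.01. Hadhb, a subunit of the trifunctional enzyme of fat oxidation, had -1.02. Pln had log2 ratios of -0.05, -0.49 and -0.59 in Control and of -1.42, -1.56 and -1.55 in YAP5SA. Atp2a2 had -0.10, -0.89 and -0.19 in Control and -1.56, -2.06 and -2.70 in YAP5SA. In Rrad, Unc45b and Hadhb too, each Control ratio was smaller than 2-fold and each YAP5SA ratio larger. None of the 24 measured citric acid cycle genes passed the 2-fold threshold, but 18 of the 24 were lower in all 6 libraries, with a median of -0.56. Among 29 fatty acid oxidation genes 1 passed and 12 were lower in all 6 libraries, with a median of -0.52. The median over all measured genes was 0.0024. The share of all measured genes lower in all 6 libraries was not counted, so the same-sign counts do not set these lists apart.

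Against CM3, genes of sarcomere and channel proteins with long transcripts were lower. Ttn (titin) had a median log2 ratio of -2.47, Myh7 (the slow myosin heavy chain) -2.39, Srl (sarcalumenin) -2.02 and Ryr2 (the calcium release channel) -1.93. Ttn stood at 2264, 559.9 and 1812 CPM in CM2 of Control, against 8008, 4727 and 5822 CPM in CM3. In YAP5SA it stood at 2149, 1110.4 and 699 CPM, against 8284, 12413 and 5645 CPM. The CM2 value was the lower one in every library. Of 11 thick filament genes measured 7 were lower (median -1.24), as were 9 of 17 ion channel genes (median -1.08), 6 of 21 calcium cycling genes (median -0.68) and 6 of 22 Z-disc and costamere genes (median -0.63).

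Ribosomal protein genes, whose transcripts are short, were higher in CM2 than in CM3. Of 77 ribosomal protein genes 18 passed and 52 were higher in all 6 libraries, with a median log2 ratio of 0.77 beside -0.0024 over all measured genes. The share of all measured genes higher in all 6 libraries was not counted, so the count of 52 does not set the list apart. The nuclear genes of complexes I, IV and V of the respiratory chain had medians of 0.46, 0.59 and 0.43, without any member past the threshold. S100a10, Vim, S100a11, Dynll1 and Ngfrap1 were higher than in CM3 as they were than in CM1, with medians of 2.06, 1.72, 1.64, 1.62 and 1.83. Gng12, a G protein γ subunit, had 1.65, and Hspb1, a small heat shock protein, 1.46. Gm6181 and Gm6419, which are processed pseudogenes, were among the 12 genes with the largest ratios, and their reads cannot be told from those of their parent genes.

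Transcript length moved with the ratio to CM3 in every library. Genes were split into 5 equal bins by their longest transcript in GENCODE vM21, which gave a length for 91.6% of the genes compared with CM3. The median log2 ratio of CM2 to CM3 was 0.50 in the shortest bin (up to 1488 bases), 0.11, -0.07 and -0.23 in the next bins, and -0.50 in the longest (from 5061 bases). The fall from the shortest to the longest bin was seen in each of the 6 libraries. The shortest bin held 59 higher and 1 lower gene, and the longest 1 higher and 131 lower genes. The ratio of CM2 to CM1 had medians between -0.03 and 0.05 in all 5 bins, although from the shortest to the longest it went from 0.23 to -0.04 in YAP5SA tissue-1 and from 0.27 to -0.07 in YAP5SA tissue-2. How far length rather than function sets the CM2 to CM3 differences was not tested.

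**Figure D2:**
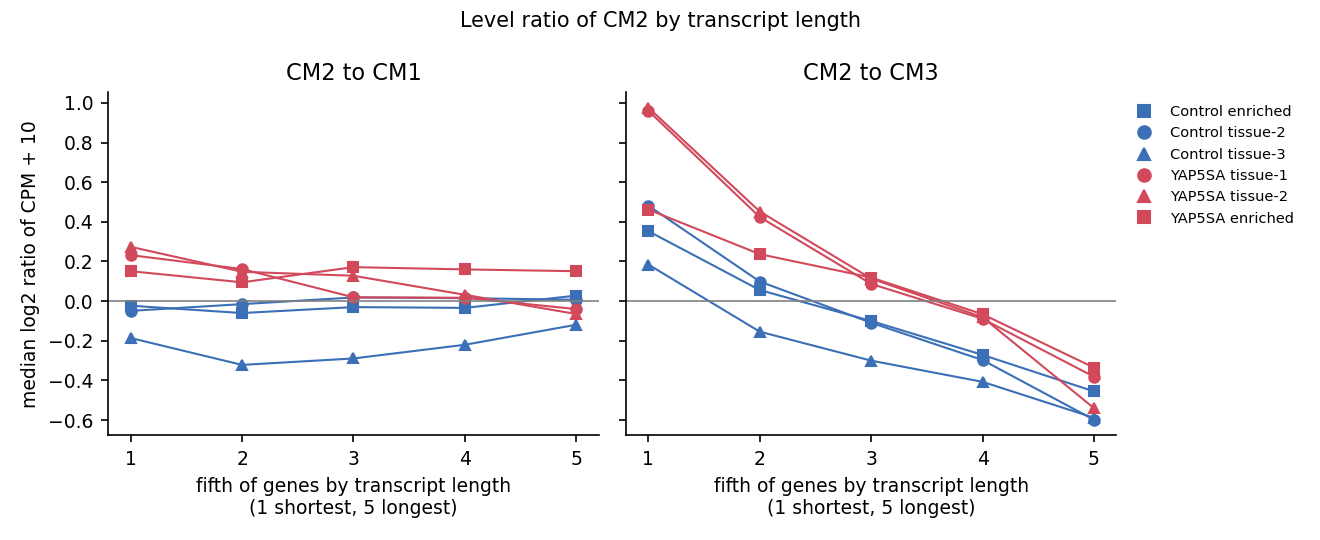
Median log2 ratio of CPM + 10 of CM2 to CM1 (left) and of CM2 to CM3 (right) in 5 bins of genes by longest transcript, with 1 line per library. The lines to CM3 fall from the shortest to the longest bin in all 6 libraries, with medians of 0.50 and -0.50 when each gene is taken at its median over libraries, and those to CM1 stay between -0.32 and 0.27.

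The second comparison asked which genes differ between YAP5SA and Control within CM2. Yap1 had 2, 1 and 10 UMIs in Control and 2, 0 and 8 in YAP5SA, too few to test. Whether transgene transcripts would be counted as Yap1 is not given in the sources used here, so Yap1 does not check the labels. Sums per library were tested with edgeR's quasi-likelihood test with preparation as a covariate, and a Benjamini-Hochberg adjusted p under 0.05 was required. Of 2050 genes tested, 61 were higher in YAP5SA (2.98%) and 23 were lower (1.12%), and 535 had an unadjusted p under 0.05. Scaling by library totals alone, in place of TMM (a scaling that sets most genes to no change), moved all fold changes up by a median of 0.61 on the log2 scale and gave 121 higher and 11 lower genes. All 84 genes kept their direction under it.

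How many genes passed depended on single libraries. Without Control tissue-2, 287 genes were higher and 388 lower, and all 84 genes were among them. Without Control enriched 12 genes passed, without Control tissue-3 15, and without YAP5SA tissue-1, tissue-2 or enriched 5, 7 and 3, each of them higher in YAP5SA. The lower genes therefore passed in the full set and without Control tissue-2, and in none of the other 5 fits with a library left out. With the 2 tissue libraries of each genotype alone, edgeR called no gene, with 257 at an unadjusted p under 0.05.

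The genes with the largest rises included S100 proteins, actin regulators and Hippo pathway members. S100a6, a calcium-binding S100 protein, stood at 21.9, 59.4 and 46.3 CPM in Control, and at 1719, 2135 and 778 CPM in YAP5SA. Its log2 fold change was 4.67 (SE 0.48, edgeR adjusted p = 0.00209), the groups did not overlap, and the gene passed in all 6 fits with a library left out. Tmsb10, a thymosin that, like Tmsb4x, binds actin monomers, stood at 11, 17.0 and 8.26 CPM against 494, 512 and 237 CPM. Its log2 fold change was 4.65 (SE 0.49), and it too passed in all 6 such fits. Serpinb9b, a serine protease inhibitor, had 1 UMI in the Control CM2 cells of all 3 libraries together and 203 in YAP5SA. The pooled ratio was 399 (exact 95% interval 70.8 to 15840, counting error only), with an edgeR adjusted p of 0.00209, and it also passed in all 6 fits.

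Acta2, α-smooth muscle actin, which immature cardiomyocytes also make, stood at 32.9, 110.3 and 56.2 CPM in Control and at 2944, 1452 and 2436 CPM in YAP5SA. Its log2 fold change was 4.76 (SE 0.59, edgeR adjusted p = 0.00559), and it passed in 4 of the 6 fits with a library left out. Cobl, an actin nucleator, stood at 5.48, 42.4 and 13.2 CPM against 645, 285 and 623 CPM (log2 fold change 4.42, SE 0.66). Pmp22, a membrane protein of myelin and of other tissues, and Gng12 had log2 fold changes of 4.09 (SE 0.49) and 3.90 (SE 0.58). Pak3, a kinase that acts on the cytoskeleton, had no UMI in Control CM2 and 42 in YAP5SA, which puts YAP5SA at least 27.5-fold higher when Control is set to 3 counts summed over its libraries. With a library left out, Cobl passed in 3 of 6 fits, Pmp22 in 5, Gng12 in 2 and Pak3 in 2 of the 5 that could test it. In each of these genes the lowest YAP5SA library lay above the highest Control library. That held for all 61 higher genes, so it does not mark out the ones named. The share over all tested genes was not counted.

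The actin cytoskeleton list had the most risen members. Of 28 tested members 10 were higher and none lower, with a median log2 fold change of 2.02 beside 0.04 over all 2050 genes. Besides S100a6, Tmsb10 and S100a10 they were Tmsb4x (2.58), Vim (3.02), Anxa5 (annexin A5, 2.35), Myl6 (a non-sarcomeric myosin light chain, 1.99), Tpm3 (2.69), Tpm4 (2.19) and Ahnak (1.93). Vim passed in 1 of 6 fits with a library left out. Members with few Control UMIs, such as Tmsb10, were deep enough to test only through their YAP5SA level. The count of 10 in 28 and the median of 2.02 are therefore no support for the list. Mprip (3.29), which ties myosin phosphatase to actin, and the kinase Rock2 (2.44) also rose; both were picked out after their values were seen. Vim, Tmsb4x, Tpm3, Tpm4 and Myl6 were among 11 of the 61 higher genes whose mean level in CM2 was more than 5-fold below that of a class of other heart cells. Without cells that hold 2 or more UMIs of fibroblast, endothelial or macrophage markers, 57 of the 84 genes were deep enough to test, all 57 kept their direction and 50 still passed. That list holds Cd36 and Fabp4, which averaged 568 and 345 CPM in CM2. Its use kept 16.9% of the CM2 cells of Control tissue-3 and 68.0% of those of YAP5SA enriched, so it is no check on other cells' RNA. Without Cd36, Fabp4 and Aqp1 in the list, chosen after seeing the data, 77 genes were tested. All 77 kept their direction and 66 still passed.

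Of 25 Hippo pathway genes listed, 5 were deep enough to test, and 3 of these were higher. Genes with few Control UMIs, such as Vgll3 and Amotl2, reached the count filter through their YAP5SA level, so the count is no support for the list. Tead1, a DNA-binding partner of YAP, stood at 38.4, 67.9 and 66.1 CPM in Control, and at 387, 370.1 and 306 CPM in YAP5SA. Its log2 fold change was 2.13 (SE 0.42, edgeR adjusted p = 0.0300), and it passed in 1 of 6 fits with a library left out. Amotl2, an angiomotin family protein that binds YAP and is also a YAP target, stood at 27.4, 25.4 and 6.61 CPM against 429.7, 228 and 208 CPM (log2 fold change 3.58, SE 0.61). Vgll3, a TEAD cofactor, had no UMI in Control CM2 and 39 in YAP5SA, and by the same rule was at least 25.6-fold higher. With a library left out, Amotl2 passed in 2 of 6 fits and Vgll3 in 2 of the 5 that could test it. Of the 22 YAP target genes listed, 5 were deep enough to test and Amotl2 alone passed. Ankrd1 did not pass (log2 fold change 1.39, SE 0.81, edgeR adjusted p = 0.305). It stood at 19832, 19162 and 15255 CPM in YAP5SA, with Control tissue-2 inside that range at 16194 CPM.

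**Figure D3:**
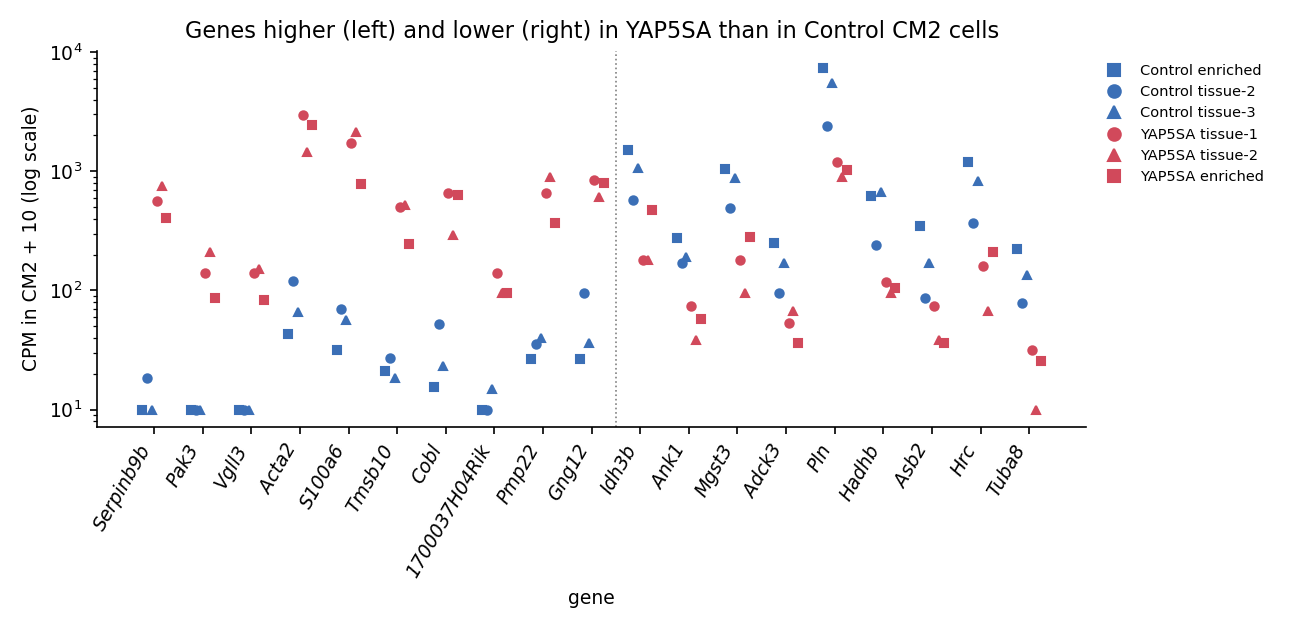
CPM + 10 in CM2 (log scale) for the 10 genes with the largest and 9 of the 10 with the smallest log2 fold change among genes that passed, with 1 point per library. For each gene on the left the 3 YAP5SA points lie above the 3 Control points, as in Acta2 (1452 to 2944 against 32.9 to 110.3 CPM), and for each gene on the right they lie below.

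The TEAD factors through which YAP works bind the sequence GGAATG, or CATTCC on the other strand. Both were searched in the 300 bases around each gene's start (250 before, 50 after; RefSeq, GRCm38.p6). Of the 61 higher genes 47 had such a window and 10 held the sequence (21.3%). Of the 23 lower genes 17 had a window and 1 held it (5.88%), and 15.0% of the windows of tested genes and 16.6% of all 27025 windows held it. These shares are given as a description with no test, and a match is not a binding site. The windows of 3 higher genes with the sequence are shown because the genes are an actin and 2 Hippo members, as the 250 bases before the start, 5′ to 3′, with the match in capitals. Acta2 lies on chr19:34255374-34255623 (minus strand), Amotl2 on chr9:102717554-102717803 (plus strand) and Vgll3 on chr16:65814939-65815188 (plus strand), and the match starts 146, 65 and 63 bases before the gene start.
Acta2: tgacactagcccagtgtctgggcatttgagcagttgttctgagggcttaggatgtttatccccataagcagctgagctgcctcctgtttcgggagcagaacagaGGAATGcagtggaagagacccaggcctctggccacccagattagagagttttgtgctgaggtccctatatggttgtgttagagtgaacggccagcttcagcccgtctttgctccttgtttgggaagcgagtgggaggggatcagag
Amotl2: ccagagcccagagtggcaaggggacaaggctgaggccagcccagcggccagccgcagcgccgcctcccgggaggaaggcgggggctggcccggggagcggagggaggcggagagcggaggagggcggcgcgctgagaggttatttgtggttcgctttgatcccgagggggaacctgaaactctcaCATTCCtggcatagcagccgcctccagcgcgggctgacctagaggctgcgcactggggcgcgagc
Vgll3: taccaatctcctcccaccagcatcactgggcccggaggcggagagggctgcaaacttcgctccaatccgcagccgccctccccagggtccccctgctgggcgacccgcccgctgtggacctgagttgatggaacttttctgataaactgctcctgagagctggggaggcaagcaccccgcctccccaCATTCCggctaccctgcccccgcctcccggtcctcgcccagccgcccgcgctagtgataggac

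The genes that fell in YAP5SA CM2 included genes of mitochondrial metabolism and calcium cycling. Pln stood at 7378, 2401 and 5533 CPM in Control, and at 1182, 883 and 1021 CPM in YAP5SA. Its log2 fold change was -2.82 (SE 0.66, edgeR adjusted p = 0.0462). Hrc, a calcium-binding protein of the sarcoplasmic reticulum, stood at 1189.5, 356 and 819 CPM against 150.4, 56.9 and 201 CPM (log2 fold change -3.06, SE 0.62). Within each of both genes the 3 YAP5SA libraries lay below all Control libraries, as they did in all 23 lower genes. It therefore does not mark out Pln and Hrc, and the share over all tested genes was not counted. Of 16 tested calcium cycling genes only Pln and Hrc passed. Pln is also 1 of 8 ventricular cardiomyocyte markers, which together summed to 22410, 9297 and 19570 CPM in Control and to 4899, 3246 and 7455 CPM in YAP5SA. The 9 atrial markers found summed to 965, 39900 and 2435 CPM in Control and to 20180, 20390 and 4317 CPM in YAP5SA. In Control tissue-2 Nppa (27332 CPM) and Clu (12444 CPM) held most of the sum. Of the 9 markers Myl7, the atrial myosin light chain, stood at 27.4, 8.48 and 786 CPM in Control and at 6124, 2619 and 193 CPM in YAP5SA. Sln, the atrial SERCA inhibitor sarcolipin, stood at 5.48, 0 and 504 CPM in Control and at 2020, 854 and 79.2 CPM in YAP5SA. Both were thus high in the 2 YAP5SA tissue libraries, and in YAP5SA enriched lay below Control tissue-3. The part of atrial and ventricular cells in the fall of Pln was not tested.

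Few members of the oxidative metabolism lists passed, all of them downward, beside 23 lower genes among all 2050 tested (1.12%). Among 23 tested citric acid cycle genes 3 fell and none rose, among them Idh3b (an isocitrate dehydrogenase subunit, -2.58) and Dld (dihydrolipoamide dehydrogenase, -2.31), and the list's median log2 fold change was -1.78. Hadhb, of fat oxidation, stood at 614, 229 and 658 CPM in Control and at 107, 85.4 and 95 CPM in YAP5SA. Among 23 tested fatty acid oxidation genes 3 fell, Hadhb (-2.97), Echs1 (-2.52) and Etfdh (-2.18), and the median was -1.97. Of 37 complex I genes 1 fell, Ndufa9 (-2.28), too few to set the list apart from all genes by this count. With Ndufa9 among them, 29 had an unadjusted p under 0.05 (edgeR) in the same direction, and the median was -1.36. Over all 2050 genes 535 had such a p in either direction, and the downward share was not counted. Other fallen genes were Tuba8 (a tubulin, -3.97), Asb2 (a ubiquitin ligase subunit, -3.05), Adck3 (coenzyme Q synthesis, -2.80), Mgst3 (a microsomal glutathione transferase, -2.73) and Ank1 (ankyrin, -2.64). None of the 12 cardiomyocyte markers passed in CM2, and their median log2 fold change was -1.60. Of the 12, 6 had an unadjusted p under 0.05 (edgeR), all downward. Of 69 tested ribosomal protein genes none passed, and none of them had an unadjusted p under 0.05.

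Some lists could not be read in CM2. None of 43 S phase genes and 5 of 54 G2 and M phase genes were deep enough to test, and none passed. After each cell was thinned to 1000 UMIs, 42.4%, 75% and 44.6% of CM2 cells of Control had a UMI of a G2 and M phase gene, and 72.7%, 76.9% and 78.4% in YAP5SA. The widest exact (Clopper-Pearson) 95% interval, for YAP5SA tissue-2 with 13 cells, ran from 46.2% to 95%. Thinning left out 4, 6 and 6 Control cells and 18, 13 and 64 YAP5SA cells that were shallower; the unthinned shares were 48.3%, 88.6%, 62.5%, 80.0%, 76.9% and 81.0%. CM1 cells of the same libraries had thinned shares of 49.2%, 76.0%, 45.7%, 73.5%, 77.8% and 73.6%. At 1000 UMIs the shares thus went with the library in both clusters, with Control tissue-2 among the YAP5SA values. Thinned to 500 UMIs, with no cell left out, CM2 had 27.3%, 54.3%, 22.4%, 57.5%, 53.85% and 52.4%. CM1 then had 24.8%, 50.6%, 26.9%, 58.8%, 29.6% and 54.4%. The clusters differed there in YAP5SA tissue-2, with 95% intervals of 33.4% to 73.4% in CM2 and 13.75% to 50.2% in CM1.

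The third comparison asked whether the genotype effect in CM2 differs from that in CM1 of the same libraries. The test was an edgeR interaction of cluster and genotype, fitted with 1 term per library, which removes what the clusters of a library share. It does not remove the sorting of cells, because the clusters were made from these genes. The p-values therefore describe the clusters as drawn, here and in the test against CM3 below. The part of the sorting of cells in these differences was not tested. Of 4321 genes, 67 had a more positive effect in CM2 (1.55%) and 145 a more negative one (3.36%). Library totals alone gave 134 and 57, with all 212 genes keeping their sign and a median shift of 0.33 on the log2 scale. Cells that hold 2 or more UMIs of fibroblast, endothelial or macrophage markers (without Cd36, Fabp4 and Aqp1) were then left out, an alternative chosen after seeing the data. CM1 kept 14, 5 and 52 cells in the YAP5SA libraries, so YAP5SA tissue-2 was dropped. Of the 212 genes 207 were tested, all 207 kept their sign and 148 still passed. With 1 library left out, 86 to 254 genes passed, with 86 without Control tissue-3 and 121 without YAP5SA enriched. Within CM1 itself 2 of 8215 genes passed the genotype test, and 1090 had an unadjusted p under 0.05.

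The ratios of CM2 to CM1 are given for these genes as a description, since the genes were chosen for ratios that differ by genotype. For the 67 genes with a more positive effect the median log2 ratio of CM2 to CM1 was -0.13 in Control and 1.41 in YAP5SA, and all 67 were within 2-fold in the Control median and 5 in the YAP5SA median. For the 145 with a more negative effect it was -0.11 in Control and -1.06 in YAP5SA, and 142 were within 2-fold in the Control median and 65 in the YAP5SA median.

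Sarcomere genes led the more negative group. Xirp2, an actin-binding protein of the intercalated disc, had log2 ratios of CM2 to CM1 of 0.16, 0.62 and 0.24 in Control and of -1.47, -1.26 and -1.98 in YAP5SA. The difference between the genotypes was -2.46 (SE 0.28, edgeR adjusted p = 4.82e-10). Myh7 stood at 1053, 541 and 533 CPM in CM2 of YAP5SA, against 5191, 1845 and 1587 CPM in CM1. In Control it stood at 795, 653 and 466 CPM in CM2 against 856, 1101 and 418 CPM in CM1 (difference -1.93, SE 0.25). Ttn (-1.88, SE 0.24), Nrap (-2.0, SE 0.30), an actin anchor of forming myofibrils, and Mybpc3 (cardiac myosin-binding protein C, -1.56, SE 0.24) also had more negative effects in CM2. Atp2a2 and Pln had differences of -2.08 (SE 0.26) and -1.43 (SE 0.21). Myh7 and Pln are also ventricular markers. The 8 ventricular markers summed to 22409, 9297 and 19572 CPM in CM2 of Control, against 22909, 11599 and 23413 CPM in CM1. In YAP5SA they summed to 4899, 3246 and 7455 CPM in CM2, against 14932, 8980 and 12321 CPM in CM1. The part of atrial and ventricular cells in these differences was not tested.

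**Figure D4:**
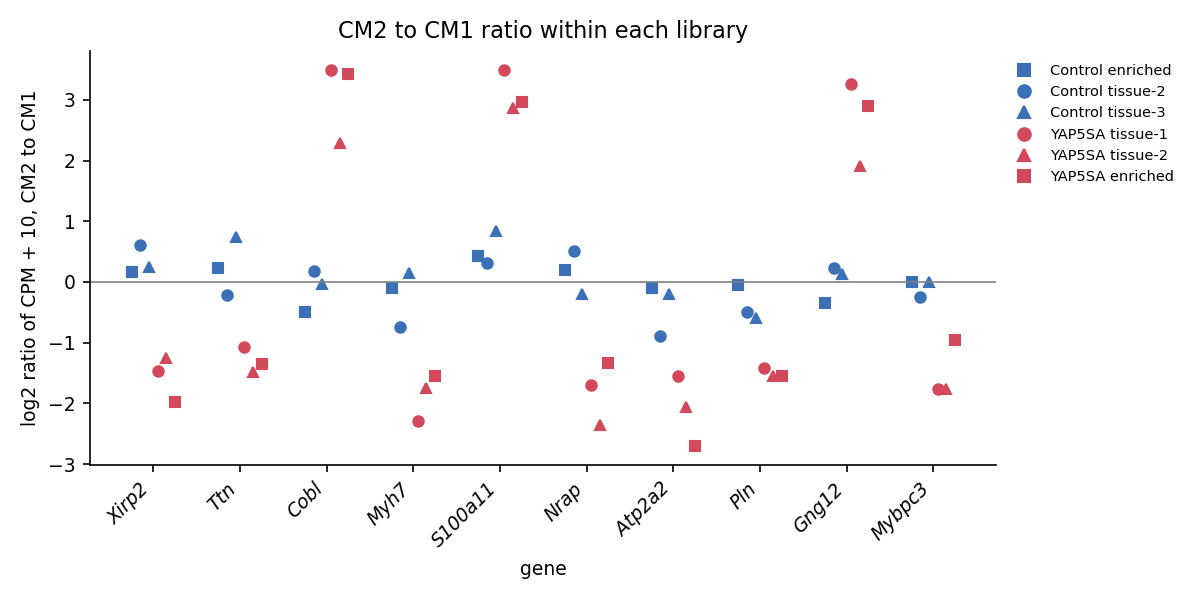
Log2 ratio of CPM + 10 in CM2 to that in CM1 within each library, for the 10 genes of smallest p in the test of cluster and genotype. The Control points lie between -0.89 and 0.84 and the YAP5SA points lie farther from 0, below it for 7 genes and above it for Cobl, S100a11 and Gng12.

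The sarcomere and mitochondrial lists had passing members mainly in the negative direction. Of 11 thick filament genes 7 had a more negative effect in CM2 and none a more positive one (median -1.68, beside -0.04 over all 4321 genes). The 12 cardiomyocyte markers share members with the sarcomere lists, and 8 of them were more negative and none more positive (median -1.13). Of 11 thin filament genes 6 were more negative (median -1.03), among them Actc1, Tnnc1 and Tnni3, of 22 Z-disc and costamere genes 10, with Ilk and Myoz2 more positive, and of 21 calcium cycling genes 8, with 1 more positive. Of 30 fatty acid oxidation genes 11 were more negative (median -0.82), of 24 citric acid cycle genes 7 (median -0.67), of 37 complex I genes 8 (median -0.48) and of 9 mitochondrially encoded genes 7 (median -1.26). In Control the 11 mitochondrially encoded genes found summed to 161490, 73496 and 283900 CPM in CM2, above 130530, 64339 and 136110 CPM in CM1. In YAP5SA they summed to 99334, 57514 and 117330 CPM in CM2, against 107050, 110130 and 118080 CPM in CM1. The more positive direction was led by Cobl, whose log2 ratio was -0.50, 0.19 and -0.04 in Control and 3.49, 2.29 and 3.43 in YAP5SA (difference 3.29, SE 0.47). S100a11 (2.22, SE 0.33) and Gng12 (2.46, SE 0.38) followed by p. Of 32 actin cytoskeleton genes 7 were more positive and none more negative, Anxa5, Ezr, Lgals1, Myl12a, S100a10, S100a11 and Tmsb10. Of 77 ribosomal protein genes none passed. Of the 10 genes named here 9 passed in all 6 fits with a library left out, and S100a11 in 5.

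Fewer genes passed the same test against CM3. Of 4197 genes 4 had a more positive effect in CM2 (0.0953%) and 25 a more negative one (0.596%). Library totals alone gave 8 and 3, with a median shift of 0.41 on the log2 scale, and all 29 genes kept their sign. Xirp2 (-1.91, SE 0.32, edgeR adjusted p = 0.00332), Des (desmin, the muscle intermediate filament, -1.38, SE 0.24), Actc1 (cardiac α-actin, -1.23, SE 0.26) and Acta1 (skeletal α-actin, -1.57, SE 0.33) were more negative. Cobl (2.99, SE 0.60), S100a10 (1.61, SE 0.41), Taf7 and Rgcc were more positive, with all 4 of these named. Taf7 and Rgcc had log2 ratios of CM2 to CM3 of 3.42 and 3.92 in YAP5SA enriched, against 1.66 and 0.84 at most in the other YAP5SA libraries. Only 1 gene passed without Control enriched, 4 without Control tissue-3, 19 without YAP5SA enriched and 71 without YAP5SA tissue-1. Xirp2 passed in all 6 of these fits.

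In the YAP5SA libraries the authors named a further cardiomyocyte cluster, YAP5SAcm, with 896 cells from YAP5SA and 99 from Control hearts. The 84 genes that passed in CM2 were set beside it as a description; they were chosen by their YAP5SA level in CM2, so no test was run. All 61 higher genes were above their CM1 level in all 3 YAP5SA libraries, with a median log2 ratio of CM2 to CM1 of 1.59. Set against YAP5SAcm, 50 of the 61 were within 2-fold in the median, with a median log2 ratio of -0.21. Of the 23 lower genes 21 were below CM1 in all 3 YAP5SA libraries (median -1.34), and 21 were within 2-fold of YAP5SAcm (median 0.02). The gap to CM3 was smaller than that to CM1, with medians of 1.19 for the higher and -0.83 for the lower genes. Within 2-fold of CM3 were 23 of the 61 and 14 of the 23. The share of all tested genes within 2-fold of YAP5SAcm was not counted, so these counts do not measure likeness to it.

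Single genes lay at different places between the clusters. Serpinb9b stood at 559, 740.3 and 398 CPM in CM2 of YAP5SA, at 551, 595 and 381 CPM in YAP5SAcm, and at 12.1, 25.2 and 7.68 CPM in CM1. Cobl stood at 645, 285 and 623 CPM in CM2, at 402, 421 and 408 CPM in YAP5SAcm, and at 48.4, 50.4 and 48.9 CPM in CM1. Both genes were thus near the YAP5SAcm level and more than 5-fold above CM1. Pln, at 1182, 883 and 1021 CPM in CM2, was above YAP5SAcm (496, 157 and 428 CPM) and below CM1 (3176, 2617 and 3015 CPM). Tead1, at 387, 370.1 and 306 CPM, was below YAP5SAcm (712, 756 and 523 CPM) in each library. In the Control libraries 59 of the 61 higher genes were within 2-fold of CM1 in the median, and all 23 lower genes were.

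**Figure D5:**
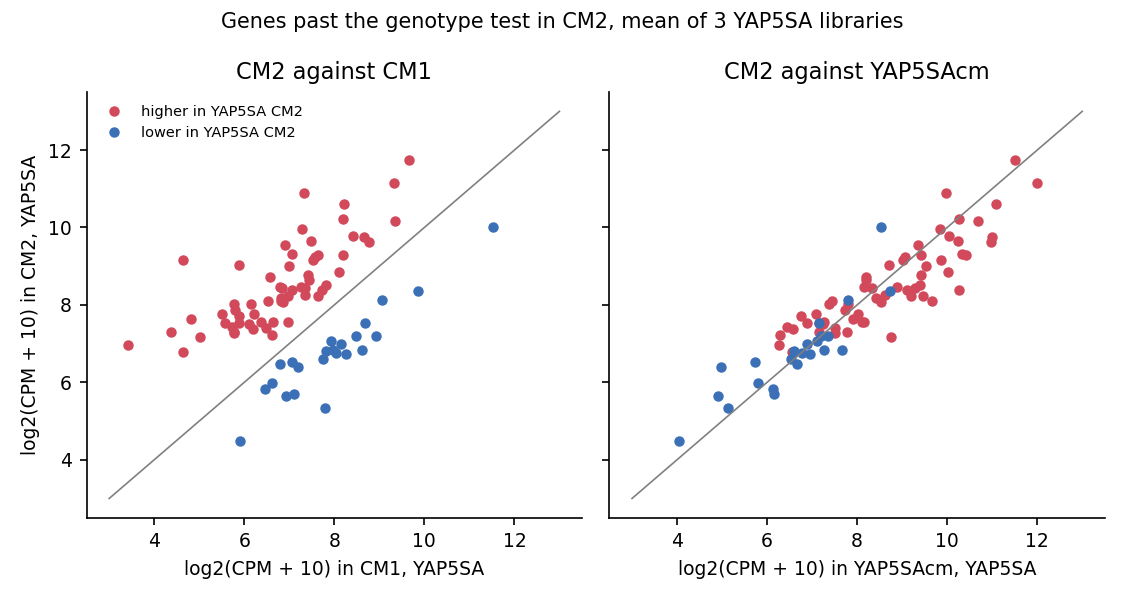
Mean log2(CPM + 10) over the 3 YAP5SA libraries in CM2 (vertical) against CM1 (left) and YAP5SAcm (right) for the 61 genes higher and the 23 genes lower in YAP5SA CM2; the line marks equal levels. Against CM1 the points lie off the line, with median log2 ratios of 1.59 and -1.34, and against YAP5SAcm around it, with medians of -0.21 and 0.02.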

How the data were processed

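The deposited table holds raw UMI counts per gene and cell for 21706 cells of 6 Drop-seq libraries. Picard, STAR and Seurat 2.3.4 are named per the submitters' processing notes; genome build and counting settings are not given in the sources used here. Cluster names, phase calls and the fraction of mitochondrial UMIs per cell come from the cell table the authors deposited. A scaled table was not used, and no other per-sample columns were left out (0).

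In 4 libraries some feature names are joined names of overlapping genes. These 854 names were merged into families, and 1210 features found under 1 kind of naming were not tested (0.206% of CM2 UMIs). No doublet caller was run; the labels do not say whether doublets were removed. Counts were summed per cluster and library, with at least 10 cells. CPM used the cluster's own total. Genotype and cluster by genotype terms were tested with edgeR 4.0.16 (R 4.3.3, TMM, filterByExpr, robust quasi-likelihood, Benjamini-Hochberg over all genes tested). DESeq2 1.42.0 was an alternative. CM2 was described against CM1 and CM3 for genes with a mean CPM of at least 20. Scripts were tested on simulated counts. Intervals and floors cover counting error only.

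Genes named were the markers, the 12 largest and 12 smallest ratios (mean CPM of at least 50), the 10 largest and 10 smallest fold changes that passed (average log2 CPM of at least 5, without genes more than 5-fold higher in another class), members of the lists described, 5 further stress and fetal genes, and the 10 smallest p of each cluster by genotype term. The cells and the gene lists were chosen with earlier results of these data known. Alternatives are given in the closing section.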

Additional observations from a re-analysis of the deposited data

Results flagged for a closer look

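The genotype effect differed between CM2 and CM1 by the test of the difference itself for 212 genes. The clusters were made from these genes, and the part of the sorting of cells in this difference and the next was not tested. The genes of smallest p were Xirp2, with a log2 difference of -2.46, Ttn with -1.88, Cobl with 3.29, Myh7 with -1.93 and S100a11 with 2.22.

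Between CM2 and CM3 the same test found a difference for 29 genes. The genes of smallest p were Xirp2 with a log2 difference of -1.91, Des with -1.38, Cobl with 2.99, mt-Nd6 with -1.98 and Actc1 with -1.23. Against CM3, only Xirp2 of the 10 genes of smallest p passed in all 6 fits with a library left out.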

How the results depend on the processing

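No gene tracked by name over the alternatives changed direction, but some of the other genes that passed against CM1 did. Without Control tissue-3, 210 of the 211 tested kept their sign. Without cells that hold 2 UMIs of fibroblast, endothelial or macrophage markers (Cd36, Fabp4 and Aqp1 among them), 178 of the 191 tested kept it. In that last fit YAP5SA rested on 1 library. Counts of genes past the thresholds moved; causes were not tested. Against CM1, 18 higher and 17 lower genes became 46 and 53 with a pseudocount of 1 CPM and 8 and 3 with 50 CPM. The lower genes became 8 with a mean CPM of at least 100, 35 with cells thinned to 1000 UMIs (5 of the 17 among them), 6 with at least 30 cells, 8 with totals without mitochondrially encoded genes and 29 without cells with other cells' markers (Cd36, Fabp4 and Aqp1 kept out of that list; chosen after seeing the data). Against CM3, a pseudocount of 1 CPM gave 197 higher and 420 lower genes, 50 CPM gave 15 and 49, and a mean CPM of at least 100 gave 121 lower. Leaving out 1 library gave 14 to 58 higher and 6 to 55 lower against CM1, and 73 to 236 higher and 265 to 342 lower against CM3.

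For genotype in CM2 (61 higher, 23 lower), library totals alone gave 121 and 11, DESeq2 96 and 128, at least 30 cells 7 and 0 (edgeR, 435 genes at an unadjusted p under 0.05), and tissue libraries alone 0 and 0 (edgeR, 257; DESeq2 was not run on them). The 4 libraries with joined names, an alternative chosen after seeing the data, gave 119 and 40. Lower genes were 91 without a filter on low counts, 44 and 52 without cells holding other cells' markers by the longer and the shorter list, and 55 without the preparation term. Leaving out 1 library gave 3 to 287 higher and 0 to 388 lower.

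For the effect against CM1 (67 more positive, 145 more negative), totals alone gave 134 and 57, equal numbers of cells 19 and 52, and the 4 libraries 21 and 63. DESeq2 gave 26 more positive and the shorter list 101. Exclusion by the longer marker list gave 27 and 50, but left CM1 with 1, 1 and 12 YAP5SA cells, so that YAP5SA rested on 1 library, and this is no check. Against CM3 (4 and 25), totals alone gave 8 and 3, equal numbers of cells 0 and 2 (edgeR, 127 at an unadjusted p under 0.05), and the 4 libraries 1 and 5. More positive genes were 2 with RLE size factors, 0 with DESeq2 (254 at an unadjusted p under 0.05) and 7 with the shorter list; more negative genes were 14 without a filter and 5 with the longer list. Leaving out 1 library gave 24 to 79 and 62 to 175 against CM1, and 0 to 11 and 1 to 60 against CM3.

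No paired analysis was possible because the files number the YAP5SA tissue libraries otherwise than the sample titles do, so no number ties a library to a sample. With 35122 and 46540 UMIs in the YAP5SA tissue libraries, 2050 genes passed the count filter in CM2.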
